A study of Mus musculus with 24 samples.

Results

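The genes described here are 8 mouse genes published as direct targets of the microRNA miR-7: Irs1, Irs2, Egfr, Pak1, Pfn2, Basp1, Zdhhc9 and Wipf2. They were taken by symbol, and all 8 were present in each of the 4 deposited expression tables, among 14769 symbols found in any table. A microRNA is a short RNA that guides an Argonaute protein to matching sites, mostly in the 3′ untranslated region (3′ UTR) of messenger RNAs, and lowers their stability or translation. Pairing of the target to the seed, bases 2 to 8 of the microRNA, carries most of the recognition. In the mammalian brain miR-7 is bound by the circular RNA ciRS-7 (gene Cdr1as), which holds many miR-7 sites, and is degraded through the long noncoding RNA Cyrano (Oip5os1). The targets fall into growth factor signalling (Egfr, Irs1, Irs2), actin assembly (Pak1, Pfn2, Wipf2) and proteins of cellular membranes (Basp1, Zdhhc9).

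Cortex of ciRS-7 knockout (KO) mice and of wild-type (WT) mice was compared by sequencing of ribosome-depleted total RNA. All animals were males aged 3 to 4 months, all are listed under the strain C57BL/6N-Cdr1asem1Nikr, and all, controls included, had the middle cerebral artery occluded for 1 h (tMCAo, a stroke model) followed by 1 day of reperfusion; no unoperated group was used here. Each animal gave a CL and a PI library, terms used here as the labels give them, so that 6 WT and 6 KO animals gave 24 libraries. The 4 groups are named by side and genotype (CL WT, CL KO, PI WT, PI KO), with n = 6 in each. The 4 tables hold log2 CPM (read counts per gene scaled by library size), 1 table for each pair of groups, and each was scaled on its own, so that tests were made within a table.

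Mouse miR-7 occurs in 2 mature forms, shown because their common seed sets which sites were searched in the targets. The seed, bases 2 to 8 counted from the 5′ end, is in capitals. The sequences are those of RefSeq on GRCm38.p6.
mmu-miR-7a-5p: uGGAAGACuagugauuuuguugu
mmu-miR-7b-5p: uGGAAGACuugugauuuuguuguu
The first form is encoded by Mir7-1 on chromosome 13 and Mir7-2 on chromosome 7, and the second by Mir7b on chromosome 17. They share their first 9 bases and first differ by A10U (miR-7a has A at position 10 and miR-7b has U). Their seed is GGAAGAC in both, so sequence pairing through the seed does not separate them. Mature miR-7 itself was not analysed here.

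The longest annotated 3′ UTR of each target (GENCODE M21, GRCm38, the assembly also called mm10) was searched on the transcript strand for 3 matches: the 8mer GTCTTCCA, the 7mer-m8 GTCTTCC and the 7mer-A1 TCTTCCA, each site being counted once under its longest match. At least 1 match lay in 7 of the 8 targets, and an 8mer in 2 of them, Irs2 and Wipf2. Over all 12634 listed genes with an annotated 3′ UTR, 27.4% held a match and 4.39% an 8mer. Among the 7433 genes whose 3′ UTR was within the length range of the targets, 952 to 6303 bases, the shares were 36.9% and 5.97%. The sites printed are the best match of each target and both 8mers of Wipf2, read 5′ to 3′ on the transcript strand in windows of 26 bases with the seed match in capitals.
Irs2 8mer, chr8:10984830-10984855, minus strand: cttgccctccctgttGTCTTCCActg
Wipf2 8mer, chr11:98900910-98900935, plus strand: atacatcgtttctcaGTCTTCCAagg
Wipf2 8mer, chr11:98903562-98903587, plus strand: gtttcttctctgattGTCTTCCAtct
Irs1 7mer-m8, chr1:82237504-82237529, minus strand: acaaccaggacctcacGTCTTCCtct
Pfn2 7mer-m8, chr3:57842726-57842751, minus strand: ttccttggctcatctaGTCTTCCttt
Egfr 7mer-A1, chr11:16914286-16914311, plus strand: cttagctcagcttaacTCTTCCAtag
Basp1 7mer-A1, chr15:25363422-25363447, minus strand: actgcagcgccagtttTCTTCCAtct
Zdhhc9 7mer-A1, chrX:48172218-48172243, minus strand: tcatctaagcccctgcTCTTCCAgca
Wipf2 had the most matches, 7 in a 3′ UTR of 5355 bases: 2 8mers, 3 7mer-m8 and 2 7mer-A1. Irs2 had 2 in 2329 bases, and Irs1, Egfr, Pfn2, Basp1 and Zdhhc9 had 1 each. Pak1 had none of these letters in its 1199 bases, which says nothing about sites elsewhere in the transcript. A match is a description of the sequence and not a measured site.

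The same matches were set against the whole tables, to see whether genes that hold them differed between genotypes as a class. The medians of the classes lay close together on both sides. In CL, the median KO minus WT difference was -0.01 over the 547 genes with an 8mer, -0.00 over the 2859 genes with a 7mer only and -0.00 over the 8922 genes with neither. In PI, the medians were -0.01 over 549 genes, -0.00 over 2874 genes and 0.01 over 9070 genes. Genes with an 8mer had longer 3′ UTRs (median 2549 bases in the CL table) than genes with no match (1011 bases), and length was not balanced between the classes.

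**Figure D1:**
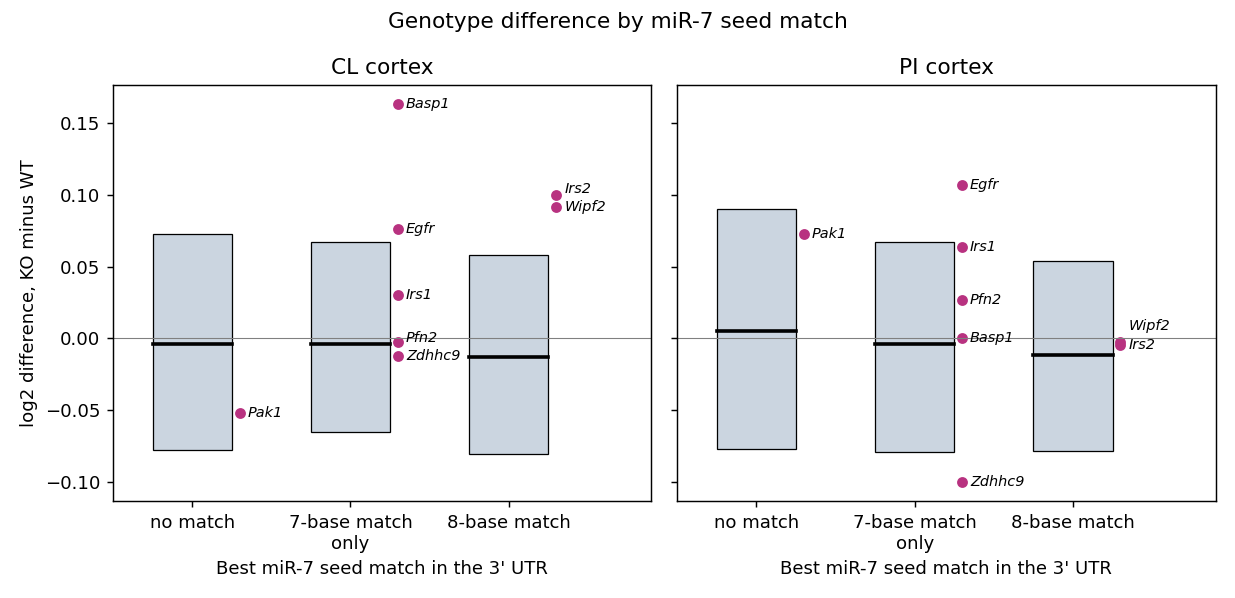
KO minus WT log2 difference (vertical axis) by 3′ UTR match to the miR-7 seed (horizontal axis), in CL and in PI; boxes span the middle 50% of genes with the median as a line, and the dots are the 8 targets. The boxes of the 3 classes lie on top of each other around 0, and the highest target dot is Basp1 in CL at 0.16.

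Sequencing depth, solved from the smallest steps between low CPM values, was 5.28 to 10.5 M counted reads per library. The deposited values had been drawn in: in 100% of genes the 2 lowest and the 2 highest libraries of a group of 6 carried equal values, so that the lowest and the highest library of a group are unknown. The second lowest, the 2 middle and the second highest values could be recovered, and these 4 are called inner values here. Each difference is one of trimmed means (the mean of the 4 inner values), with its SE, 95% confidence interval and a p-value moderated with limma and adjusted (Benjamini-Hochberg) over all genes of the table. The knockout was seen in the target locus: Cdr1as had a trimmed mean of 11.83 log2 CPM in CL WT and 11.42 in PI WT, and no inner value of a KO group was above -2.57, which is less than 3 reads. Cdr1os, another transcript of the ciRS-7 locus itself, was higher in KO by 1.80 in CL (adjusted p = 4.94e-09) and 1.46 in PI (adjusted p = 1.28e-06). Cyrano (Oip5os1) differed by 0.03 in CL and -0.04 in PI, with adjusted p of 0.978 and 0.948. CL KO library 6 lay apart from the other CL KO libraries on the first principal component (-30.8 against -10.1 to -15.0). Without it, by plain means of the values with no test, the CL KO minus CL WT difference was 0.15 for Basp1 and 0.09 for Wipf2, and the PI KO minus CL KO difference was -0.24 for Pak1, -0.35 for Wipf2, -0.18 for Pfn2 and -0.29 for Irs2. The values had been drawn in with library 6 in the group, so that leaving it out does not remove all of its influence. Some smaller differences moved as well, by plain means without and with that library. In CL KO minus CL WT, Zdhhc9 came to -0.06 in place of -0.02, Pak1 to -0.04 in place of -0.06 and Egfr to 0.11 in place of 0.07. Irs1 moved little there, to 0.02 in place of 0.03. In PI KO minus CL KO, Zdhhc9 came to -0.10 in place of -0.14 and Egfr to -0.13 in place of -0.10. All 12 neuronal markers were listed in every table, as were 10 of 10 astrocyte markers.

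The 8 targets covered a wide range of expression. Per kilobase of annotated exon in CL WT, Basp1 (134 CPM per kb), Pak1 (133) and Pfn2 (102) were the most abundant. Wipf2 followed at 9.04 CPM per kb, then Irs2 at 4.84, Irs1 at 4.12, Zdhhc9 at 3.52 and Egfr at 2.84. The 3 abundant targets therefore stood more than 10 times above the other 5. Median counted reads per library ran from 3475 for Pak1 to 156 for Zdhhc9. Counting error alone, as an SD on the log2 scale, was 0.02 for Pak1 and 0.12 for Zdhhc9, so that the abundant targets were measured more finely.

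**Figure D2:**
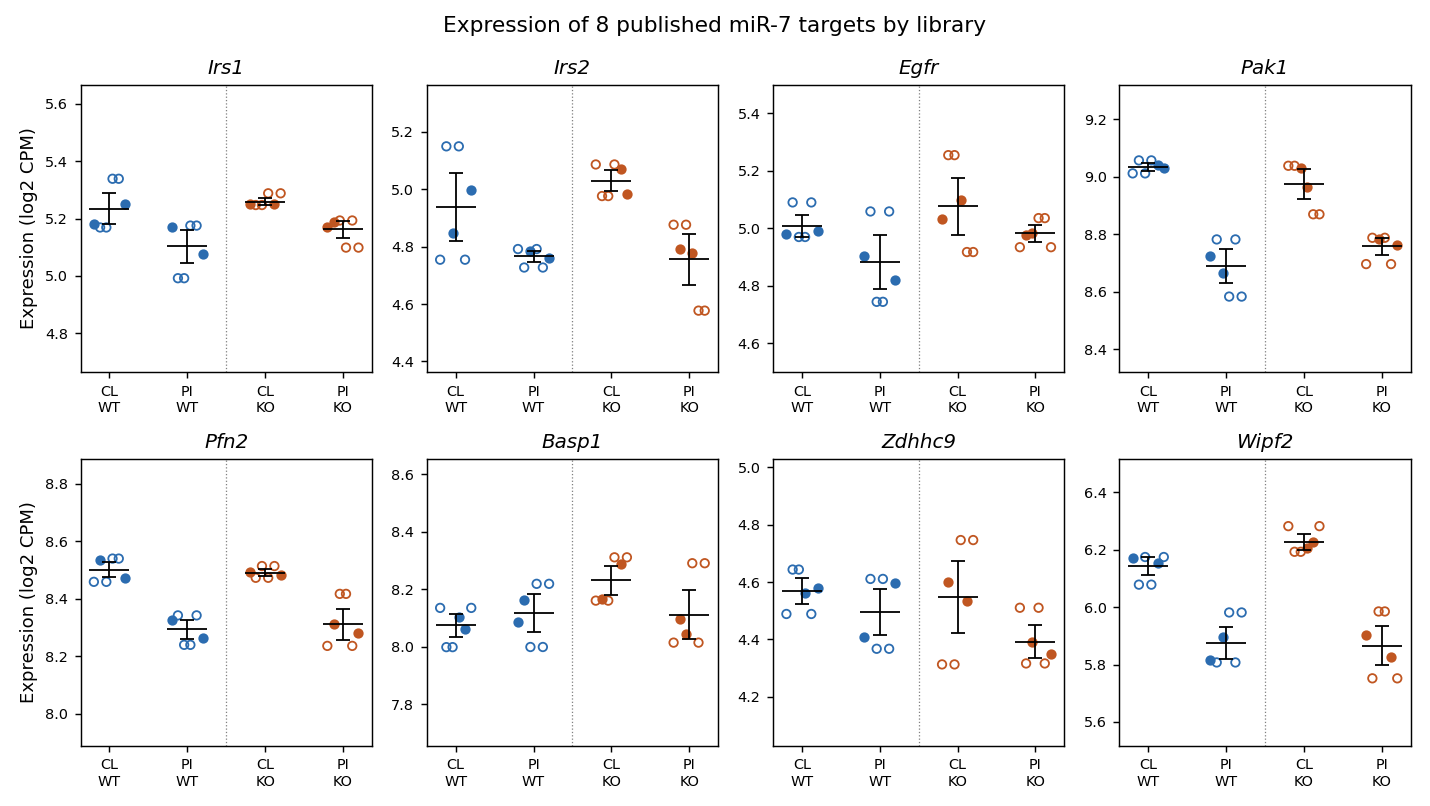
Level of each target in log2 CPM (vertical axis, one panel per gene) in the 4 groups, from the tables that compare PI with CL; filled points are the 2 middle libraries, open points the libraries tied at the low and high ends and drawn at the second lowest and second highest value, and bars the trimmed mean ± SE (n = 6 libraries). WT and KO groups come from tables scaled separately; the PI points of Pak1 and Wipf2 lie below the CL points in both genotypes, while those of Basp1 overlap.

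The first question was whether the targets differed between genotypes on the same side of the brain. None of the 8 passed the test in CL, where 0.0279% of 14323 genes did (4 genes), and none in PI, where 0.0208% of 14452 genes did (3 genes). Limma on the values as deposited, whose spread had been reduced, called Basp1 and Wipf2 in CL. There it called 2311 of 14323 genes. In PI it called 0 targets, beside 2388 of 14452 genes. The targets' median KO minus WT difference was 0.05 in CL beside -0.00 over all genes, with 5 of 8 positive where 49.2% of genes were. It was 0.01 in PI beside -0.00, again with 5 of 8 positive where 48.5% of genes were. Inner values of KO and WT were wholly apart for 2 of 8 targets in CL (8.67% of genes) and for 0 of 8 in PI (8.97% of genes). At an unadjusted p below 0.05 there was 1 target in CL (5.73% of genes) and 0 in PI (5.75% of genes). The intervals bound what could have gone unseen. For the target with the narrowest interval in CL, Pfn2, it ran from -6.64% to 6.73% in KO relative to WT, and for Zdhhc9, with the widest, from -16.6% to 17.8%.

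Egfr, the receptor for EGF and related ligands, gave inner values of 4.89 to 5.23 log2 CPM in CL KO (median 5.04) and 4.93 to 5.06 in CL WT (median 4.95). Its difference of 0.08 (SE 0.10, interval -0.13 to 0.28) was smaller than the spread of the KO libraries (adjusted p = 0.971). In PI the inner values were 4.97 to 5.07 in KO and 4.77 to 5.08 in WT, a difference of 0.11 (SE 0.10, interval -0.10 to 0.31, adjusted p = 0.910). The groups overlapped on both sides. Irs1 and Irs2, the adaptors that pass the signal of the insulin and IGF1 receptors to PI3 kinase, did the same. Irs1 differed by 0.03 in CL (SE 0.07, interval -0.12 to 0.18, adjusted p = 0.984) and by 0.06 in PI (SE 0.08, interval -0.11 to 0.23, adjusted p = 0.928). Irs2, with an 8mer in its 3′ UTR, differed by 0.10 in CL (SE 0.11, interval -0.13 to 0.33, adjusted p = 0.954) and by -0.00 in PI (SE 0.09, interval -0.21 to 0.20, adjusted p = 0.997). Its CL WT libraries were the more scattered, with inner values of 4.72 to 5.12 log2 CPM against 4.95 to 5.06 in CL KO.

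Among the actin regulators, Wipf2 (a WIP family protein that binds N-WASP) was the target with the most seed matches. In CL its inner values were 6.16 to 6.26 log2 CPM in KO (median 6.19) and 6.05 to 6.14 in WT (median 6.13), and they did not overlap. Over all genes compared there, 4.35% had KO inner values wholly above those of WT. The difference was 0.09 (SE 0.06, interval -0.03 to 0.22), or 6.54%, and did not pass the test (adjusted p = 0.902). In PI the Wipf2 groups overlapped, at 5.79 to 6.02 in KO and 5.83 to 6.01 in WT, with a difference of -0.00 (SE 0.08, interval -0.19 to 0.18, adjusted p = 0.998). Pak1, a kinase driven by Rac1 and Cdc42, differed by -0.05 in CL (SE 0.05, interval -0.17 to 0.07, adjusted p = 0.953) and by 0.07 in PI (SE 0.06, interval -0.07 to 0.21, adjusted p = 0.910). Pfn2, the profilin of neurons, which supplies actin monomers for filament growth, differed by -0.00 in CL (SE 0.04, interval -0.10 to 0.09, adjusted p = 0.997) and by 0.03 in PI (SE 0.06, interval -0.11 to 0.17, adjusted p = 0.972). Both genes overlapped between genotypes on both sides.

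Basp1, a myristoylated protein of growth cones and synaptic terminals, had the largest KO minus WT difference of the 8 targets in CL. Its CL KO inner values were 8.13 to 8.28 log2 CPM (median 8.20) and its CL WT inner values 7.97 to 8.10 (median 8.05), without overlap. The difference was 0.16 (SE 0.06, interval 0.03 to 0.29), or 12.0% higher in KO, with an unadjusted p of 0.0179 by the limma-moderated test. It did not pass after adjustment over all genes (adjusted p = 0.816). In PI the inner values were 8.05 to 8.33 in KO and 8.03 to 8.25 in WT, and the difference was 0.00 (SE 0.09, interval -0.19 to 0.19, adjusted p = 1.000). Whether the CL and PI differences of Basp1 differ from each other is tested below as an interaction, which was not passed. Zdhhc9, a palmitoyltransferase that acts on Ras proteins, differed by -0.01 in CL (SE 0.11, interval -0.26 to 0.24, adjusted p = 0.997) and by -0.10 in PI (SE 0.10, interval -0.32 to 0.12, adjusted p = 0.910), with overlap on both sides. It was the least covered target, with the widest interval in either genotype comparison.

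**Figure D3:**
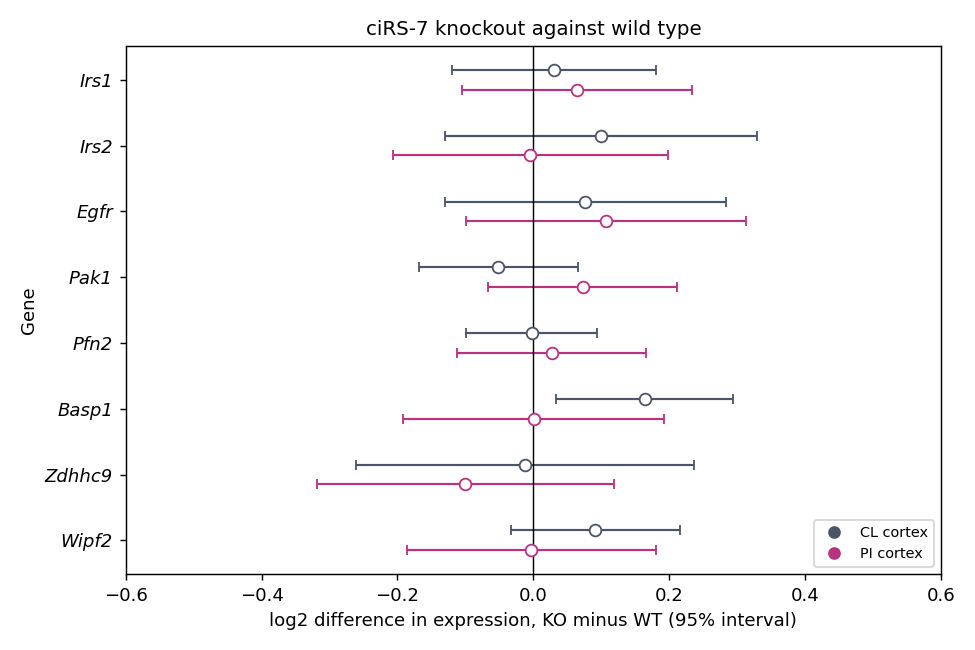
KO minus WT log2 difference of trimmed means (horizontal axis) for each target (vertical axis), in CL and in PI, with 95% confidence intervals (n = 6 libraries per group); open points did not pass the test. The CL interval of Basp1 (0.03 to 0.29) is the only one of the 16 that leaves out 0, and no target passed the test adjusted over all genes.

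The second question was how the targets differed between PI and CL within a genotype. Pak1, Pfn2 and Wipf2 were lower in PI in WT (3 of 8 targets), and Pak1 and Wipf2 in KO (2 of 8). Over all genes 10.6% of 14489 passed in WT, 5.4% in the lower direction, and 10% of 14338 passed in KO, 4.94% in the lower direction. The median difference of the 8 targets was -0.15 in WT beside 0.01 over all genes, with 7 of 8 negative where 47.7% of genes were. In KO it was -0.17 beside -0.00, with 8 of 8 negative where 50.1% of genes were. Inner PI values lay wholly below CL for 3 of 8 targets in WT (13.1% of genes) and for 5 of 8 in KO (13.4% of genes). In bulk tissue, fewer cells of a type and less RNA per cell cannot be told apart.

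Pak1 was lower in PI in both genotypes. Its inner values in WT were 9.01 to 9.06 log2 CPM in CL (median 9.04) and 8.58 to 8.78 in PI (median 8.70). In KO they were 8.87 to 9.04 in CL and 8.70 to 8.79 in PI (median 8.77). Neither pair overlapped, and the CL WT libraries were the tightest of the 4 groups. The difference in WT was -0.35 (SE 0.06, interval -0.47 to -0.22, adjusted p = 0.00264), so that the level fell by 21.3%. In KO it was -0.22 (SE 0.06, interval -0.35 to -0.09, adjusted p = 0.0375). That KO call was lost when variances were moderated towards 1 common value in place of a trend with expression level (adjusted p = 0.127). With the animal as a replicate block, which pairs PI with CL, both Pak1 differences passed (adjusted p = 1.28e-05 in WT and 0.0106 in KO).

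Wipf2 fell in both genotypes as well. In WT its inner values were 6.08 to 6.17 log2 CPM in CL (median 6.16) and 5.81 to 5.98 in PI (median 5.86). In KO they were 6.19 to 6.28 in CL (median 6.22) and 5.75 to 5.99 in PI (median 5.86). All inner PI values were below all inner CL values. The difference was -0.27 in WT (SE 0.07, interval -0.41 to -0.12, adjusted p = 0.0224) and -0.36 in KO (SE 0.08, interval -0.52 to -0.20, adjusted p = 0.00991). The WT call was lost with no trend in the prior variance (adjusted p = 0.0665). With the replicate block both Wipf2 differences passed (adjusted p = 0.00613 in WT and 0.00139 in KO).

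Pfn2 passed in WT and did not pass in KO by the unpaired trimmed-mean test. Its inner values were 8.46 to 8.54 log2 CPM in CL WT (median 8.50) and 8.24 to 8.34 in PI WT (median 8.30), without overlap. The difference was -0.21 (SE 0.05, interval -0.32 to -0.10, adjusted p = 0.0212), and it was lost with no trend in the prior variance (adjusted p = 0.0823). In KO the inner values were 8.47 to 8.51 in CL (median 8.49) and 8.24 to 8.42 in PI (median 8.30), again without overlap. That difference was -0.18 (SE 0.06, interval -0.31 to -0.05, adjusted p = 0.0706). The PI and CL libraries of an animal share its number. With the animal as a replicate block the Pfn2 difference passed in WT (adjusted p = 0.00768) and in KO (adjusted p = 0.0429). A difference between the genotypes was not found for Pfn2, as given with the interaction.

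The signalling targets had lower trimmed means in PI but none passed. Irs2 in KO came nearest: its inner values were 4.98 to 5.09 log2 CPM in CL (median 5.03) and 4.58 to 4.88 in PI (median 4.78), without overlap. The difference was -0.27 (SE 0.09, interval -0.48 to -0.07, adjusted p = 0.0890, and 0.0560 with the replicate block). In WT the Irs2 groups overlapped, with CL inner values from 4.75 to 5.15, and the difference was -0.17 (SE 0.10, interval -0.40 to 0.05, adjusted p = 0.358). Irs1 gave -0.13 in WT (SE 0.08, interval -0.30 to 0.04, adjusted p = 0.359) with overlap, and -0.10 in KO (SE 0.07, interval -0.24 to 0.05, adjusted p = 0.424) without. The KO groups of Irs1 were set apart by a narrow gap, 5.25 to 5.29 in CL against 5.10 to 5.19 in PI. Egfr gave -0.13 in WT (SE 0.09, interval -0.33 to 0.08, adjusted p = 0.462) and -0.09 in KO (SE 0.10, interval -0.30 to 0.12, adjusted p = 0.611), and its groups overlapped in both.

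With libraries paired by animal, the recovered values of Irs1 were lower in PI in 6 of 6 animals in WT and 6 of 6 in KO. Those of Egfr were lower in 6 of 6 in WT and 4 of 6 in KO. Libraries at the ends of a group stand at its second lowest or second highest value, so that these signs are not exact. Such signs were not counted over all genes. With the replicate block, the adjusted p was 0.330 and 0.549 for Irs1 and 0.388 and 0.601 for Egfr.

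Basp1 and Zdhhc9 did not pass in either genotype. Basp1 was the 1 target with a positive difference in WT, 0.04 (SE 0.07, interval -0.11 to 0.19, adjusted p = 0.776), with inner values of 256 to 281 CPM in CL and 256 to 298 CPM in PI. In KO its difference was -0.12 (SE 0.08, interval -0.30 to 0.06, adjusted p = 0.401), with 286 to 318 CPM in CL and 259 to 313 CPM in PI. By animal, the recovered values of Basp1 were lower in PI in 6 of 6 in KO and 2 of 6 in WT, signs that are again not exact. The adjusted p with the replicate block was 0.220 in KO. The CL KO libraries are shared by this comparison and by the CL comparison of genotypes, in which they were the higher group for Basp1. Zdhhc9 gave -0.07 in WT (SE 0.09, interval -0.27 to 0.13, adjusted p = 0.705) and -0.16 in KO (SE 0.12, interval -0.42 to 0.11, adjusted p = 0.474), and its inner values overlapped.

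**Figure D4:**
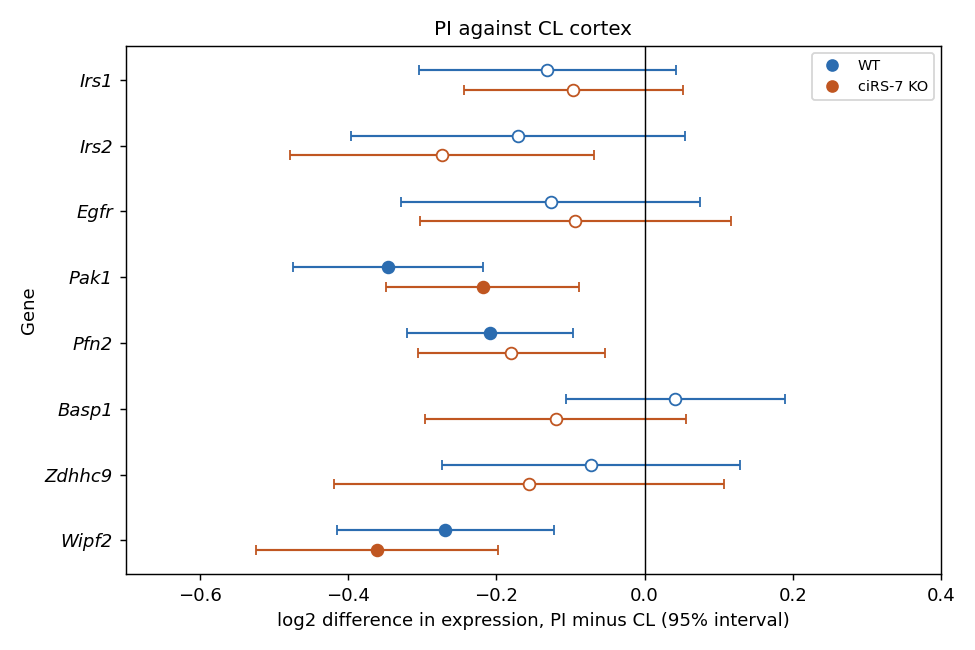
PI minus CL log2 difference of trimmed means (horizontal axis) for each target (vertical axis), in WT and in KO, with 95% confidence intervals (n = 6 libraries per group); filled points passed the test and open points did not. The intervals of Pak1, Pfn2 and Wipf2 lie below 0 in both genotypes and that of Irs2 in KO only; the WT point of Basp1 (0.04) is the only one above 0.

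Whether the PI minus CL difference depended on genotype was tested as an interaction over 14211 genes. None of the 8 targets passed, and 0% of genes did (0 of 14211 by the limma-moderated test, with 646, or 4.55%, at an unadjusted p below 0.05, and 1940 with limma on the values as deposited). No target had an unadjusted p below 0.05. The largest was Basp1 at -0.16 (SE 0.11, interval -0.40 to 0.07, unadjusted p = 0.166), followed by Pak1 at 0.13 (SE 0.09, interval -0.05 to 0.31, unadjusted p = 0.149). Irs2 gave -0.10 (SE 0.15) and Wipf2 -0.09 (SE 0.10). Zdhhc9 gave -0.08 (SE 0.16), while Irs1, Egfr and Pfn2 gave 0.04, 0.03 and 0.03. The intervals of Irs2 and Zdhhc9, -0.41 to 0.20 and -0.41 to 0.25, are wider than the PI minus CL differences themselves.

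Other genes described as miR-7 targets were followed as a list of 22, of which 21 or 22 were listed per table. None passed between genotypes on either side, and their median KO minus WT difference was 0.01 in CL and 0.02 in PI. In CL 5 of 21 had an unadjusted p below 0.05 by the limma-moderated test, beside 5.73% of all genes, and the list ranged from -0.21 to 0.49 (Nr4a3). In PI 1 of 22 did, beside 5.75% of all genes. Between PI and CL, 2 of 21 were lower in WT, beside 5.4% of all genes. They were Cplx1 (a regulator of synaptic vesicle fusion, -0.25) and Phactr1 (an actin and phosphatase 1 binding protein, -0.29). In KO 3 of 21 were lower, beside 4.94% of all genes. They were Cplx1 (-0.22), Phactr1 (-0.29) and Nr4a3 (a nuclear receptor of the immediate early class, -0.78). The list's median PI minus CL difference was -0.07 in WT and -0.05 in KO.

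The genes around Irs1, Irs2 and Egfr, 47 listed ligands, receptors, adaptors and kinases, did not move one way. In WT 4 rose and 4 fell, with a median of 0.01, and in KO 4 rose and 3 fell, with a median of -0.05. Over all genes 10.6% passed in WT and 10% in KO, shares that also stand beside the lists below. Hbegf, an EGF receptor ligand, rose by 1.04 in WT and 1.17 in KO. Igfbp3, which binds IGFs, rose by 0.87 and 1.10, and Lrig1, a negative regulator of EGF receptors, by 0.79 and 1.06. On the other side Igf2 changed by -0.76 in WT and -0.77 in KO, and Erbb4, a neuregulin receptor, by -0.37 and -0.25. Foxo3, a transcription factor restrained by insulin signalling, fell in WT by 0.25. Egfr itself had differences of -0.13 in WT and -0.09 in KO, which did not pass, and a link to these genes was not tested.

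Among 43 listed genes of PAK and actin regulation, 3 rose and 2 fell in WT, and 2 rose and 3 fell in KO. Arpc1b, a subunit of the Arp2/3 complex, rose by 1.27 in WT and 1.26 in KO. Pfn1, the widely expressed profilin, rose by 0.50 and 0.33, while its relative Pfn2 had the negative differences given before. Vasp, an actin filament elongation factor, rose in WT by 1.05. Wasf1, a WAVE complex subunit of neurons, changed by -0.24 in WT and -0.39 in KO, and the formin Diaph1 by -0.37 in both. Enah fell in KO by 0.31. The list's median was -0.01 in either genotype, so Pak1, Pfn2 and Wipf2 were lower than the middle of the list. Around Basp1 and Zdhhc9, of 32 listed genes in WT, 1 rose (the thioesterase Lypla2, 0.50) and 3 fell (Zdhhc2 -0.36, Zdhhc8 -0.32 and Marcks -0.23). Of 31 in KO, Lypla2 rose by 0.66 and Marcks, a membrane and actin binding protein, changed by -0.28. The medians were -0.06 and 0.01. In the miR-7 network, Cdr1as changed by -0.47 in WT (adjusted p = 0.00143), Cdr1 by -0.79 and Ago2 by 0.17, and in KO Cdr1os changed by -0.39 and Tnrc6b by -0.19. No gene of the signalling, actin or membrane lists passed between genotypes.

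**Figure D5:**
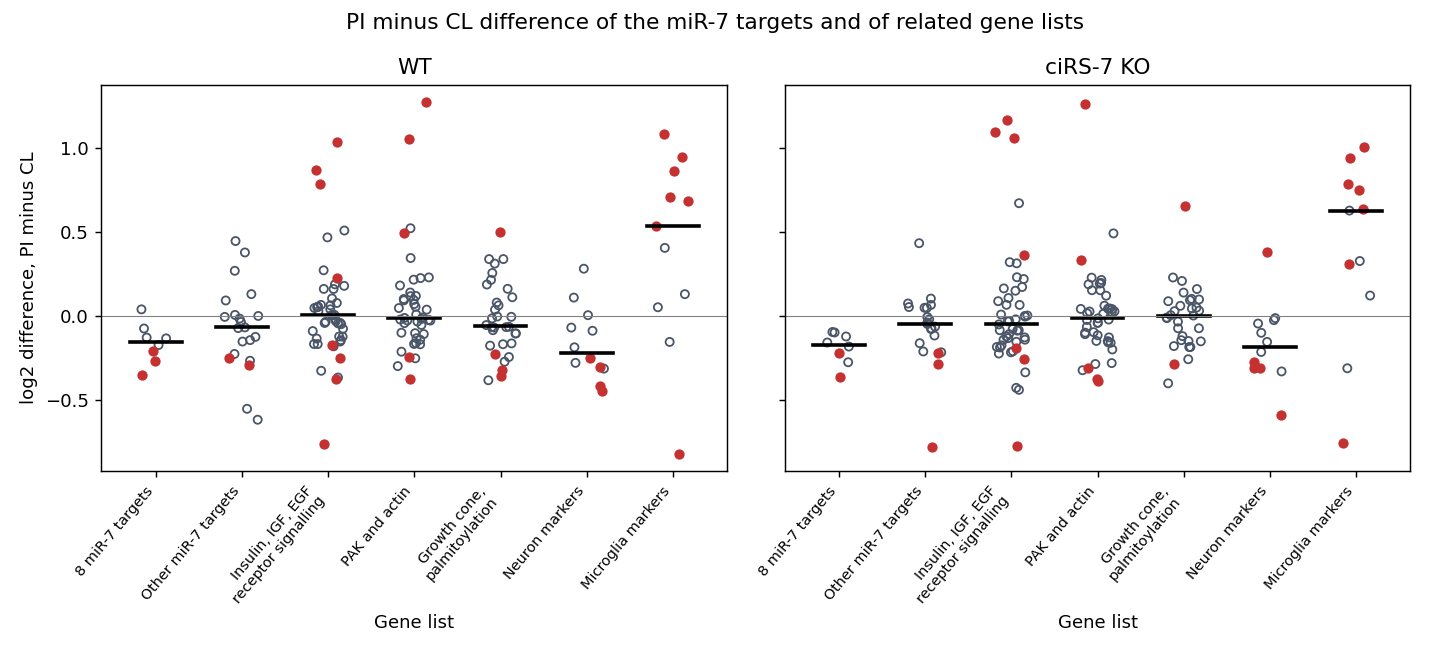
PI minus CL log2 difference (vertical axis) of the 8 targets and of the genes in 6 lists (horizontal axis) in WT and in KO; each point is a gene, filled where it passed the test, and each line is the median of the list. The medians of the targets (-0.15 and -0.17) and of the neuron markers (-0.22 and -0.18) lie below 0, and those of the microglia markers (0.54 and 0.63) above it.

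Cell type markers were measured beside these differences. The summed level of the 12 neuron markers was 9841 to 10576 CPM in CL WT and 8468 to 9393 in PI WT, the PI range lying below the CL range. In KO it was 9811 to 10319 in CL and 8110 to 9111 in PI. The sums use recovered values, in which each gene's lowest and highest library stand at the second lowest and second highest value. The ranges of the true library sums are therefore not known. Of the 12, 4 fell in WT (Camk2a -0.44, Nefl -0.41, Snap25 -0.30 and Syt1 -0.25), and the same 4 symbols passed in KO (-0.59, -0.31, -0.31 and -0.27) along with Gad2, which rose by 0.38. Reactive glia markers rose, 10 of 11 in WT and 9 of 10 in KO, with medians of 2.51 and 2.37. The largest rises were Lcn2 (3.38), Steap4 (3.07) and Timp1 (2.71) in WT and Lcn2 (3.52), Serpina3n (2.72) and Osmr (2.62) in KO. Microglia markers gave 6 higher and 1 lower in each genotype: P2ry12 changed by -0.82 and -0.75, and the largest rises were Itgam (1.08), Aif1 (0.95) and C1qb (0.87) in WT and C1qb (1.01), Itgam (0.95) and C1qa (0.79) in KO. Astrocyte markers gave 2 higher (Gfap 1.88, Aqp4 0.27) and 2 lower (Gja1 -0.35, Slc1a2 -0.23) in WT, and 2 higher (Gfap 2.19, Aqp4 0.41) and 1 lower (Gja1 -0.43) in KO. Oligodendrocyte markers gave 2 lower in WT (Cspg4 -0.53, Cnp -0.41) and 0 in KO, and vessel markers 0 in WT and 2 lower in KO (Slco1a4 -0.48, Abcb1a -0.37). Of 13 blood leukocyte markers 3 were listed in the PI and CL tables. Cd14 (3.41 and 3.04) and Ptprc (1.00 and 1.06) rose in WT and KO. The third had a difference of -0.04 in WT and -0.34 in KO and did not pass. Of 12 markers of neighbouring regions 7 were listed, of which 1 was higher (Ppp1r1b, 0.63) and 1 lower in WT, and 0 higher and 1 lower in KO. The part of the neuron markers in the lower Pak1, Pfn2 and Wipf2 was not tested. Between genotypes no marker of these lists passed, and the neuron list had a median of -0.01 in CL and 0.01 in PI. Microglia markers had positive KO minus WT differences for 10 of 11 genes on both sides, with medians of 0.18 in CL and 0.16 in PI. Oligodendrocyte markers had negative ones for 10 of 11 in CL (median -0.10) and for 4 of 11 in PI (median 0.05). The part of these markers in the targets' genotype differences was not tested.

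The targets also differed in how closely other genes followed them across libraries, which is a description of 12 libraries in each PI and CL table. Pak1 was followed most closely, by Ahcyl1 (mean Pearson's r of 0.977 over the 2 tables) and Nipa1 (0.972). Pfn2 was followed by Cbln2 (0.968) and Kcnq5 (0.967), and Wipf2 by Pitpnm2 (0.943) and Slc25a23 (0.941). The other 5 had looser companions. Irs2 was followed by Rgs14 (0.884) and B3gat1 (0.861), Irs1 by Btbd3 (0.862) and Setd7 (0.856), and Egfr by Adss (0.845) and Pafah1b1 (0.839). For Zdhhc9 they were Tmem109 (0.830) and Cbarp (0.778), and for Basp1 Map2k2 (0.797) and Prdm9 (0.772). The r of Prdm9 was 0.948 in WT and 0.595 in KO, so that its mean hides unlike values. All these companions were picked as the highest among 14182 genes, a choice that by itself favours a high r. Pak1 and Pfn2 had an r of 0.975 in WT and 0.833 in KO with each other. Each r spans PI and CL libraries, which share the difference between the sides.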

How the data were processed

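Ribosome-depleted total RNA libraries of mouse cortex were made with the CORALL kit, per the labels' protocols. Samples were grouped by their titles, which give genotype, animal number and side, so that PI and CL libraries of a number come from the same animal. The authors deposited log2 CPM values in 4 tables of 12 libraries; the genome build is mm10, per the submitters' processing notes, and the aligner, counting method, use of strand and scaling are not given in the sources used here. Of 48 value columns none (0) was left unused. In the deposited log2 values the extremes of each group of 6 had been replaced by the group's quartiles, a step no label records: the mean of the 6 equals the trimmed mean, but an ordinary test takes the reduced spread as real. The trimmed-mean (Yuen) test was therefore used, with Winsorized sums of squares, moderated with limma 3.58.1 (squeezeVar with trend; R 4.3.3), two-sided, at an adjusted p of 0.05. It was tested on data simulated with the spreads of the real genes. There it found 22.4% of log2 changes of 0.25 in CL KO minus CL WT and 15.8% in PI KO minus PI WT. Most genotype changes of that size were therefore missed in the simulated data. Larger changes were planted beside them, so that 122 and 111 genes passed on average, against 4 and 3 in the real data. The adjustment is less strict where more genes pass, so that these shares may be too high for the real comparisons. The shares are averages over genes of all expression levels, not over the targets. Same-numbered PI and CL libraries deviated together weakly (median r 0.06 in WT and 0.07 in KO). Seed matches were read from GENCODE M21 on GRCm38, where 14367 of 14769 symbols matched 1 gene. Reads per library came from the step of low CPM values: 81.9% to 91.6% were whole within 0.05 read. Named genes were the 8 targets, every gene of a list that passed (or 3 up and 3 down where more than 6 passed), the knockout locus, and the 2 genes most like each target. The targets and lists were chosen with earlier results of these data known. Some genes that this rule names are counted but not reported by name here.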

Additional observations from a re-analysis of the deposited data

How the results depend on the processing

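The direction of every target difference was kept under every alternative except for 3 values near 0: centring on the median gene turned Irs2 and Wipf2 in PI KO minus PI WT to 0.00034 and 0.0020, and leaving out CL KO library 6 (chosen after seeing the data) turned Pfn2 in CL KO minus CL WT to 0.0021. Limma on the values as deposited, whose spread is too small, called 2311 genes in CL KO minus CL WT, 2388 in PI KO minus PI WT, 6459 in PI WT minus CL WT, 6666 in PI KO minus CL KO and 1940 for the interaction. Among the targets it called 2 in CL KO minus CL WT (Basp1 and Wipf2), 6 in PI WT minus CL WT and 6 in PI KO minus CL KO. With no trend in the prior variance 1015 genes and 1 target (Pak1) were called in PI WT minus CL WT, and 739 genes and 1 target (Wipf2) in PI KO minus CL KO. With the replicate block 85 genes were called in CL KO minus CL WT in place of 4, 6 in PI KO minus PI WT in place of 3 and 1 for the interaction in place of 0. In the genotype comparisons the shared number is only a number between animals (median r 0.02 in CL and -0.01 in PI), while in the interaction it ties PI to CL of the same animal. The block called Pfn2 in PI KO minus CL KO and changed no other call of a target. A pseudocount of 1 CPM, a filter at 1 CPM and median centring (shift of at most 0.01) changed no call of a target. Counting error limits Zdhhc9, Irs2 and Egfr most. Leaving out other libraries one at a time was not run: the lowest and highest values of each group are not known. That limit also holds for leaving out CL KO library 6, whose influence was not wholly removed.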
